A study of Mus musculus with 6 samples.

Results

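The keratin genes are described here across thyroid lobes of 6 mice. Members were all genes on the array whose symbol is Krt followed by a number and an optional letter, with the keratin-associated Krtap genes left out. This gave 49 genes of the 19505 named genes on the array, each measured by 1 probe set. The RefSeq table of assembly GRCm38.p6 lists 54 such genes. Krt6a, Krt6b, Krt81, Krt83 and Krt87 were not named among the probe sets and were not analysed here. Krt74 is a transcribed pseudogene in that table.

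The study compared 3 Foxe1flox/flox/Cre mice, called knockouts below, with 3 mice carrying Cre alone, called controls. Foxe1 encodes a forkhead transcription factor required for thyroid development. All 6 mice were of C57BL/6J background, aged 6 to 8 weeks at treatment, and all received tamoxifen at 0.05 g/kg into the abdomen once a day for 5 days, the controls included. Thyroid was taken 2 weeks later, and RNA of 1 frozen lobe per animal went onto 1 array. The knockout is induced by tamoxifen. No source used here names the promoter that drives Cre.

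Keratins are the intermediate filament proteins of epithelial cells, and each filament is built from pairs of an acidic type I and a basic type II chain. Krt8 and Krt18, with Krt7 and Krt19, make the filaments of simple epithelia such as the thyroid follicle and ducts. Krt5, Krt14 and Krt15 belong to the basal layer of stratified epithelia. Cells that leave that layer switch to Krt1 and Krt10 in epidermis and to Krt4 and Krt13 in the lining of mouth and oesophagus. Krt16 and Krt17 are induced in injured or activated epithelium and in skin appendages, and the hair keratins build hair, nail and the hard papillae of the tongue.

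Values are log2 expression after normalization by the authors, and every difference below is knockout minus control on that scale. Levels of different genes are not ranked, since each gene has its own probes. Foxe1 read 7.60, 7.19 and 7.04 in controls and 3.33, 2.88 and 3.04 in knockouts. The groups did not overlap, and the lower one is that labelled as knockout. Thyroglobulin, the defining product of the thyroid, read between 18.67 and 19.27 on the 6 arrays. The lobes also carried transcripts of squamous and airway epithelium in both groups: the squamous marker Sprr3 read 17.42 or more on every array and the airway secretory gene Bpifa1 read 18.07 or more. Control 1 and knockout 3 lacked signal of the Y-linked genes Eif2s3y, Kdm5d and Uty (means of 3.04 and 2.65, against 8.03 to 8.30 on the other arrays), so values without both are printed beside many of the results.

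Of the 49 keratins, 1 passed the test. This was Krt76, lower in the knockout, by limma at an adjusted p under 0.05 over all 22206 probe sets. That is 2.04% of the keratins, where 0.338% of all probe sets passed in either direction and 0.0856% passed as lower. An unadjusted p under 0.05 was reached by 11 keratins, 9 lower and 2 higher, which is 22.4% against a background of 12.7% (6.13% lower and 6.61% higher). The 3 knockout arrays lay on one side of the 3 controls for 12 keratins, 8 lower and 4 higher, which is 24.5% against a background of 18.1% (8.78% lower and 9.28% higher). The median difference over the 49 was 0.01, and over all probe sets it was -0.02. In a bulk lobe, fewer cells of a type and less RNA per cell cannot be told apart, which holds for every difference given here.

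**Figure D1:**
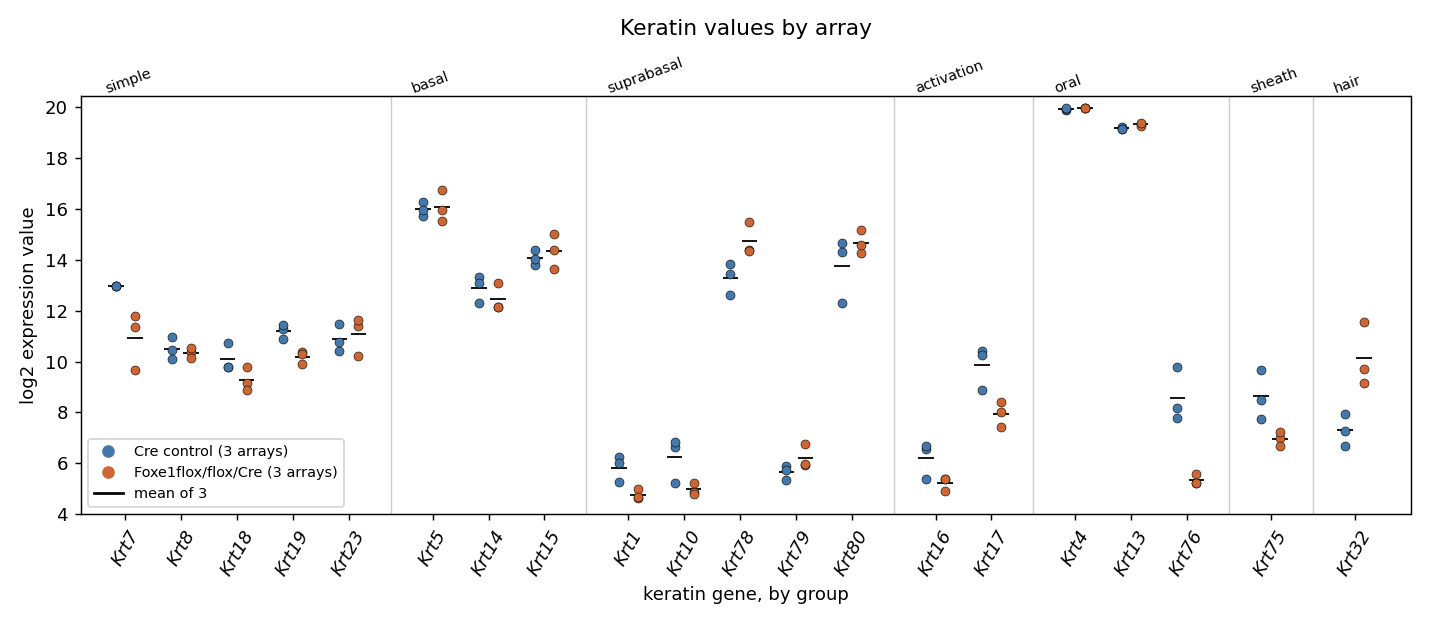
Log2 expression value (vertical axis) of 20 keratin genes (horizontal axis, by group), with 1 point per array and a bar at each mean of 3. Krt76, Krt7 and Krt17 stand lower in the 3 knockouts and Krt32 and Krt78 higher, while Krt5 and Krt15 overlap and Krt4 and Krt13 sit at the top of the scale.

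The upstream sequences of the 5 keratins below are shown because they cover the largest differences in each direction that have an entry in the promoter table. They are the 250 bases before the start site, from RefSeq, build GRCm38.p6, on the strand of the gene. Capitals mark the TATA box letters TATAAA and the forkhead core TAAACA or CAAACA, searched on both strands.
Krt76, chr15:101892921-101893170, minus strand: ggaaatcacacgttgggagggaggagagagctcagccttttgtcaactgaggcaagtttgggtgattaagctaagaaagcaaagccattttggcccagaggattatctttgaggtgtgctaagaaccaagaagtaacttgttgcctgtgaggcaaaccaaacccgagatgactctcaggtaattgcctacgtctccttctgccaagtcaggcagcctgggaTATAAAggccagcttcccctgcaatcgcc
Krt32, chr11:100088270-100088519, minus strand: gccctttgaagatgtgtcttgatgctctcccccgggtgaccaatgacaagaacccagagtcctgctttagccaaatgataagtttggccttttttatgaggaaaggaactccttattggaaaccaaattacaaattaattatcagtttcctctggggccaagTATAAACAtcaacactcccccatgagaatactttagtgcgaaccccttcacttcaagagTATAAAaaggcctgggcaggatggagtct
Krt7, chr15:101412153-101412402, plus strand: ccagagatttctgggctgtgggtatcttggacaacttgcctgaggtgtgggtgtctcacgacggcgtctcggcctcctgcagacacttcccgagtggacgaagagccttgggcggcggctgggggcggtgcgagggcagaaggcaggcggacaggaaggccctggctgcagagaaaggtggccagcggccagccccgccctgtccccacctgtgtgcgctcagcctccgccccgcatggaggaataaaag
Krt75, chr15:101573905-101574154, minus strand: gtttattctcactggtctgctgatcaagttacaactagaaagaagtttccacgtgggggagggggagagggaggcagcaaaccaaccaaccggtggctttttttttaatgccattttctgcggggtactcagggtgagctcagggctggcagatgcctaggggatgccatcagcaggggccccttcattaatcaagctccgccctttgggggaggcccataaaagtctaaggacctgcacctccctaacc
Krt78, chr15:101954288-101954537, minus strand: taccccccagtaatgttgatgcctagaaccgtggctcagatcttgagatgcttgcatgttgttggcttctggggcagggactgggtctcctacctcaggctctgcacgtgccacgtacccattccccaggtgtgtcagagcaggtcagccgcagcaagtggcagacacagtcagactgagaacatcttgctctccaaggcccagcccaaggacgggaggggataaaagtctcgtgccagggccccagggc

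In Krt76 and in Krt32 the letters TATAAA begin 29 bases before the start site, the usual place of a TATA box. Krt32 holds a second TATAAA that begins 88 bases before the start and runs into a TAAACA that begins 86 bases before it. The windows of Krt76, Krt7, Krt75 and Krt78 hold neither forkhead core. Of the 49 keratins, 36 had an entry in the table, with 37 start sites in all. TATAAA stood in 17 of the 37 windows (45.9%), against 12.4% of 32851 promoter windows of the same length. TAAACA stood in 9 (24.3% against 12.0%), CAAACA in 3 (8.11% against 16.0%) and the AP-1 letters TGANTCA in 2 (5.41% against 6.75%). These are letter matches and not measured binding. The 9 windows with TAAACA were those of Krt2, Krt13, Krt20, Krt23, Krt25, Krt32, Krt39, Krt82 and Krt84. Krt32 differed by 2.83 between knockout and control, and the others by -0.38 to 0.45. Whether the letters go with the differences was not tested. Krt17 and Krt19 had no entry.

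Of the oral keratins, only Krt76 passed the test. Krt76, a type II keratin of the palate and other oral-type epithelium, read 7.78, 8.16 and 9.77 in controls and 5.25, 5.59 and 5.25 in knockouts. All 3 knockouts lay below all 3 controls, and control 3 was the highest array. Krt76 fell by 3.21 (SE 0.45, 95% interval -4.23 to -2.18, limma adjusted p = 0.0324), a 9.23-fold difference. With single arrays left out the difference lay between -3.60 and -2.61. The call held without control 1 or control 3 and was lost without control 2 (adjusted p = 0.0817), knockout 1 (0.125), knockout 2 (0.0927) or knockout 3 (0.129). With Y-linked signal as a covariate the adjusted p was 0.0314, and without the pair of arrays lacking that signal the difference was -3.54 (adjusted p = 0.111). Over all alternatives the adjusted p ran from 0.0181 to 0.403, the highest with an ordinary t statistic.

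Krt4 and Krt13, the type II and type I partners of the non-cornified lining of mouth and oesophagus, were near the upper limit of the table in every lobe. Krt4 read 19.88, 19.91 and 19.93 in controls and 19.93 on all 3 knockout arrays. The highest value in the whole table is 19.93, and Krt4 sat at it on 4 of the 6 arrays. Krt13 read 19.20, 19.13 and 19.12 in controls and 19.31, 19.25 and 19.37 in knockouts. Its groups did not overlap, yet the difference was 0.16 (95% interval -0.22 to 0.54, limma adjusted p = 0.758). Leaving out single arrays gave 0.13 to 0.19, and a second quantile normalization gave 0.35 (limma adjusted p = 0.453). Values this close to the limit leave little room for a rise to show.

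The basal keratins showed no difference past the test. Krt5, the type II chain of basal cells, read 16.27, 15.71 and 15.94 in controls and 15.95, 15.51 and 16.74 in knockouts. Its groups overlapped, and the difference was 0.09 (95% interval -0.62 to 0.81). Krt14, its type I partner, read 13.32, 12.28 and 13.09 in controls and 12.12, 12.14 and 13.07 in knockouts, a difference of -0.45 (95% interval -1.23 to 0.33). Krt15, the other basal type I chain, read 14.36, 13.77 and 14.01 in controls and 14.39, 13.65 and 15.01 in knockouts, a difference of 0.30 (95% interval -0.46 to 1.06). Knockout 3 was the highest knockout array for all 3 genes. Leaving out single arrays gave -0.24 to 0.37 for Krt5, -0.77 to -0.24 for Krt14 and -0.03 to 0.65 for Krt15, with the lowest value of each without knockout 3. Without both arrays lacking Y-linked signal, Krt5 stood at -0.10 and Krt15 at 0.13. The smallest limma adjusted p among the 3 was 0.649. The intervals reach down to -1.23 for Krt14 and up to 1.06 for Krt15.

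Among the simple keratins, Krt7 and Krt19 were lower on all 3 knockout arrays. Krt7, the type II chain of ducts and airway, read 12.98, 12.97 and 12.97 in controls and 11.35, 9.68 and 11.78 in knockouts. The controls were almost identical (SD 0.01) and the knockouts spread widely (SD 1.11). The difference was -2.04 (95% interval -3.09 to -0.98, unadjusted p = 0.00188, limma adjusted p = 0.122). Krt19, a type I chain of simple and ductal epithelium, read 11.29, 10.87 and 11.45 in controls and 10.39, 9.89 and 10.31 in knockouts. The difference was -1.01 (95% interval -1.52 to -0.49, limma adjusted p = 0.119).

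Krt8 and Krt18, the partner pair of simple epithelia, had different sizes of difference. Krt8 read 10.95, 10.45 and 10.11 in controls and 10.37, 10.52 and 10.12 in knockouts. Its knockouts lay within the range of its controls, and the difference was -0.17 (95% interval -0.73 to 0.39), or -0.36 to 0.06 with single arrays left out and 0.17 without both arrays lacking Y-linked signal. Krt18 read 10.73, 9.79 and 9.78 in controls and 9.15, 9.80 and 8.90 in knockouts. Its difference was -0.82 (95% interval -1.56 to -0.08, limma adjusted p = 0.337), and it was -0.50 without control 1 and -0.31 without both arrays lacking Y-linked signal. Whether the difference of Krt18 exceeds that of Krt8 was not tested. Krt23, a further type I gene grouped here, read 10.41, 10.75 and 11.46 in controls and 11.38, 10.23 and 11.61 in knockouts, with overlapping groups and a difference of 0.20 (-0.07 to 0.62 with single arrays left out, -0.30 without both arrays lacking Y-linked signal). Krt20, the keratin of gut and urothelium, lay between 2.89 and 3.50 on the 6 arrays, with its group means under the lower quartile of the arrays.

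The airway list also read lower in knockouts. Its 9 measured markers of 10 listed all had negative differences, with none past limma's adjusted threshold. An unadjusted p under 0.05 was reached by 7 (77.8%, where 6.13% of all probe sets reached it as lower). Without control 1, the secretory gene Bpifb1 passed (-1.57, limma adjusted p = 0.0439). The list's mean level lay between 17.05 and 17.66 in controls and between 16.22 and 16.31 in knockouts, a difference of -1.01, or -0.79 without both arrays lacking Y-linked signal. None of the 9 was near background, but some were near the upper limit of the table. Bpifa1 read 19.89 in control 1, the highest value on that array, and Cyp2f2 read 18.76 to 19.53. The thyroid follicular list read higher, with a mean level of 8.29 to 10.11 in controls and 11.04 to 11.43 in knockouts. Over its 8 measured markers of 10 listed, differences ran from 0.04 for Tg to 4.83 for Slc5a5, which read 2.97 in control 3. Tg read 18.67 to 19.27, near the upper limit as Krt13 was. The test was passed by 1 of the 8 markers (12.5%, where 0.338% of all probe sets passed in either direction). This was Hhex, a homeobox factor of thyroid development, which rose by 2.46 (limma adjusted p = 0.0273). That call was lost with any 1 array left out (adjusted p between 0.0594 and 0.107). Control 3 was the lowest array for the list, and the difference of 1.79 in its mean level was 1.20 without it. The part of airway or follicular epithelium in the simple keratin values was not tested.

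The suprabasal keratins had differences in both directions, none past the test. Krt1 and Krt10, the partner pair of cornifying epidermis, were lower on all 3 knockout arrays. Krt1, the type II chain, read 5.26, 6.24 and 6.02 in controls and 4.66, 5.00 and 4.67 in knockouts. The difference was -1.06 (95% interval -1.68 to -0.45, limma adjusted p = 0.15). Krt10 read 5.25, 6.65 and 6.84 in controls and 4.89, 4.82 and 5.24 in knockouts, so control 1 almost met knockout 3. The difference was -1.26 (95% interval -2.14 to -0.38, limma adjusted p = 0.215). Without control 1 it was -1.76 and passed the test (adjusted p = 0.0439, with a range of 0.0439 to 0.53 over the alternatives), and without both arrays lacking Y-linked signal it was -1.89 and did not pass (adjusted p = 0.0846).

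Krt78, a type II keratin of the differentiated layers of stratified epithelium, was higher in every knockout lobe. Its readings were 12.62, 13.82 and 13.43 in controls and 14.39, 14.32 and 15.46 in knockouts. The difference was 1.43 (95% interval 0.56 to 2.30, limma adjusted p = 0.163). Without control 1 and knockout 3, its lowest and highest arrays and those without Y-linked signal, it was 0.73. Krt79, a type II keratin of the upper hair follicle, read 5.91, 5.36 and 5.74 in controls and 5.93, 5.99 and 6.75 in knockouts, a difference of 0.55 (0.29 without knockout 3). Krt80, a type II keratin of many epithelia and named here after its values were seen, read 12.29, 14.31 and 14.64 in controls and 14.27, 14.58 and 15.15 in knockouts. Control 1 stood apart, and the difference of 0.92 became 0.19 without it and -0.05 without it and knockout 3. The other members of this group, Krt2, Krt9 and Krt77, had means below the lower quartile in both groups.

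Both measured keratins of the activation group read lower in the knockout. Krt17, a type I chain of skin appendages and of epithelium after injury, read 8.87, 10.43 and 10.25 in controls and 8.03, 7.43 and 8.42 in knockouts. The knockouts lay below all controls, with a difference of -1.89 (95% interval -2.85 to -0.93, limma adjusted p = 0.113). Without control 1 the difference was -2.38 and passed (adjusted p = 0.0439, with a range of 0.0439 to 0.473 over the alternatives), and without both arrays lacking Y-linked signal it was -2.61 and did not pass (adjusted p = 0.0672). Krt16 read 5.38, 6.58 and 6.68 in controls and 5.40, 4.92 and 5.40 in knockouts, a difference of -0.97 (limma adjusted p = 0.279), or -1.47 without both arrays lacking Y-linked signal. Control 1 overlapped the knockouts, as it nearly did for Krt10. Krt14, Krt16 and Krt17 are similar in sequence, and whether their probes are shared was not tested.

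Of the hair keratins, Krt32 differed most. This type I chain of the hair cuticle read 6.69, 7.95 and 7.27 in controls and 9.70, 9.17 and 11.54 in knockouts. The groups did not overlap, and knockout 3 was the highest array. The difference was 2.83 (SE 0.57, 95% interval 1.54 to 4.13), a 7.13-fold difference that missed the threshold (limma adjusted p = 0.0888). Without knockout 3 and control 1 it was 1.82. At an adjusted p under 0.1, Krt32 and Krt76 passed among the keratins, where 1.17% of all probe sets passed.

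The other 11 measured hair keratins differed little. Their differences ran from -0.38 to 0.45, and 6 of the 12 hair keratins had means below the lower quartile in both groups. Tchh and Hoxc13, a hair sheath protein and a hair keratin regulator, lay between 2.72 and 3.38 on all arrays. Of 6 hair follicle and nail markers, 5 were below the lower quartile in both groups, and the mean level of the list was 3.28 to 3.40 in controls and 3.10 to 3.28 in knockouts.

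Among the 9 keratins of the hair follicle sheath, Krt75 had the largest difference. This type II chain of the companion layer, also found in filiform papillae and nail, read 7.76, 8.48 and 9.65 in controls and 6.98, 6.67 and 7.25 in knockouts. The order of the 3 controls was that of Krt76, and the knockouts lay below all of them. The difference was -1.66 (95% interval -2.63 to -0.70, limma adjusted p = 0.15), and it was -2.24 without both arrays lacking Y-linked signal. Krt28 also had separated groups, at values between 3.02 and 3.50, with a difference of -0.34 and both means below the lower quartile. The other 7 ranged from -0.35 to 0.41, at low readings between 2.55 and 4.16. Of the 9, 5 had means below the lower quartile in both groups. Small differences at such readings do not show that these genes were unchanged.

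The 6 remaining keratins varied little. Krt12, the corneal type I chain, read 7.69, 7.43 and 7.52 in controls and 7.70, 7.76 and 7.63 in knockouts. Krt24 stood at -0.26 (95% interval -0.81 to 0.29), or between -0.43 and -0.09 with single arrays left out, the smallest without knockout 1. Krt42, Krt88, Krt90 and Krt222 ranged from -0.05 to 0.12. Krt24, Krt42 and Krt88 read between 3.00 and 4.23, close to the lower quartiles of the arrays (3.49 to 3.60). Their small differences do not show that they were unchanged. In all, 15 of the 49 keratins had means below the lower quartile in both groups, with readings between 2.39 and 3.81. A change in these could not be told from background.

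**Figure D2:**
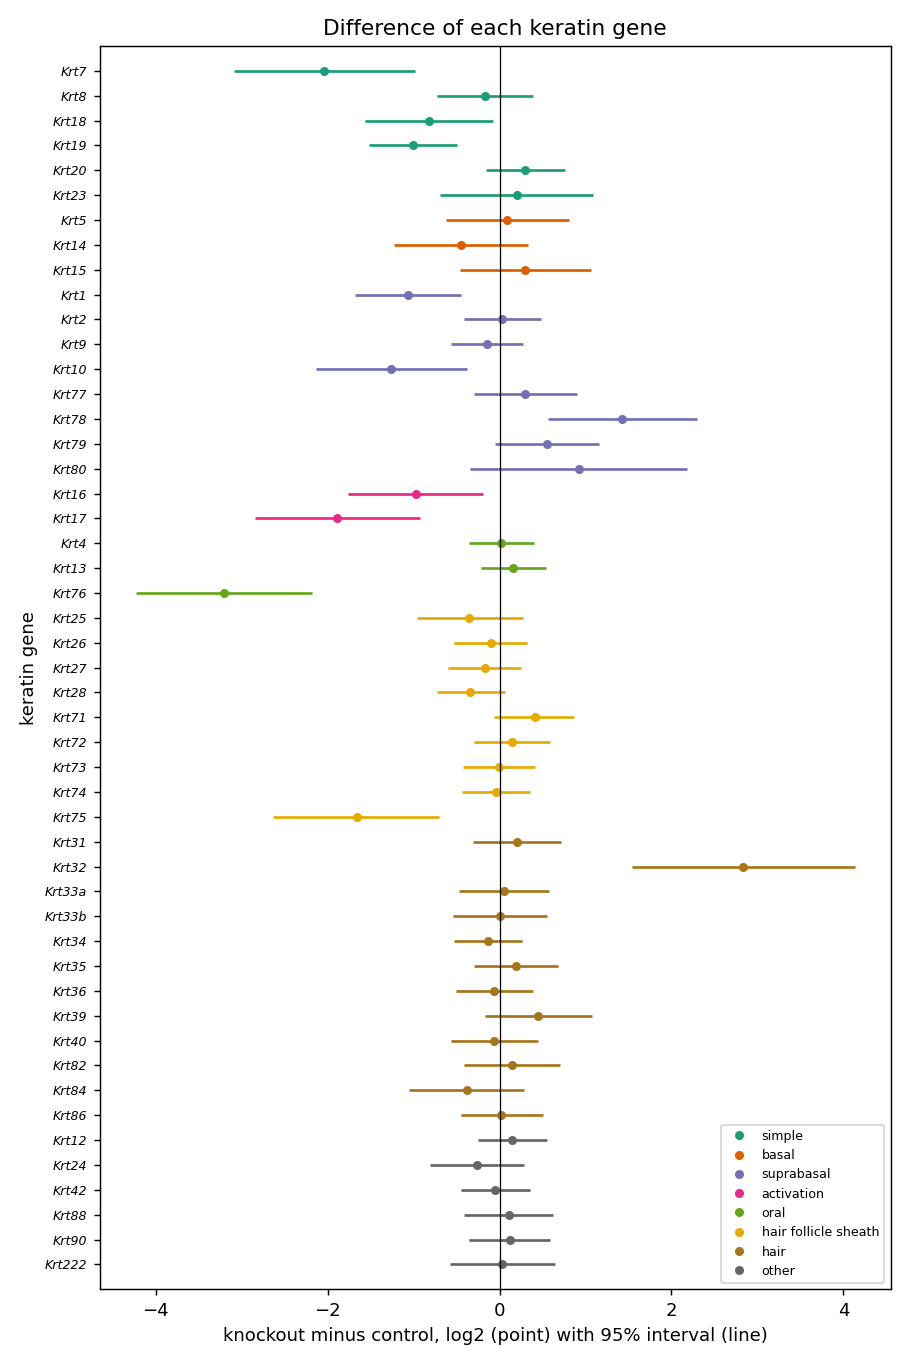
Difference of knockout minus control on the log2 scale (horizontal axis) with its 95% interval for each of the 49 keratin genes (vertical axis), coloured by group. Most intervals cross 0, while those of Krt76 at -3.21 and Krt32 at 2.83 lie farthest from it.

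The type I and type II keratins are kept in a cluster each, on chromosomes 11 and 15, with Krt18 next to Krt8 in the type II cluster. Neighbouring keratins had differences of the same sign in some stretches and of opposite sign in others. Krt76 at -3.21 lies directly beside Krt4, whose difference cannot be read at the upper limit of the table. Beyond Krt4 are Krt79 at 0.55 and Krt78 at 1.43. On the other side of Krt76 are Krt77 at 0.30, below the lower quartile in both groups, and then Krt1 at -1.06. Krt32 at 2.83 lies between Krt31 at 0.20 and Krt35 at 0.19. The neighbours Krt80 and Krt7 differed by 0.92 and -2.04. Of 41 pairs of keratins that are adjacent among protein-coding genes, 19 had both members above the lower quartile in at least 1 group, and 8 of these 19 pairs had opposite signs. Leaving out both pairs with Krt4, 7 of 17 had opposite signs and 10 the same sign. The run of Krt14, Krt16 and Krt17 stood at -0.45, -0.97 and -1.89. The partners Krt1 and Krt10, which lie on different chromosomes, stood at -1.06 and -1.26.

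**Figure D3:**
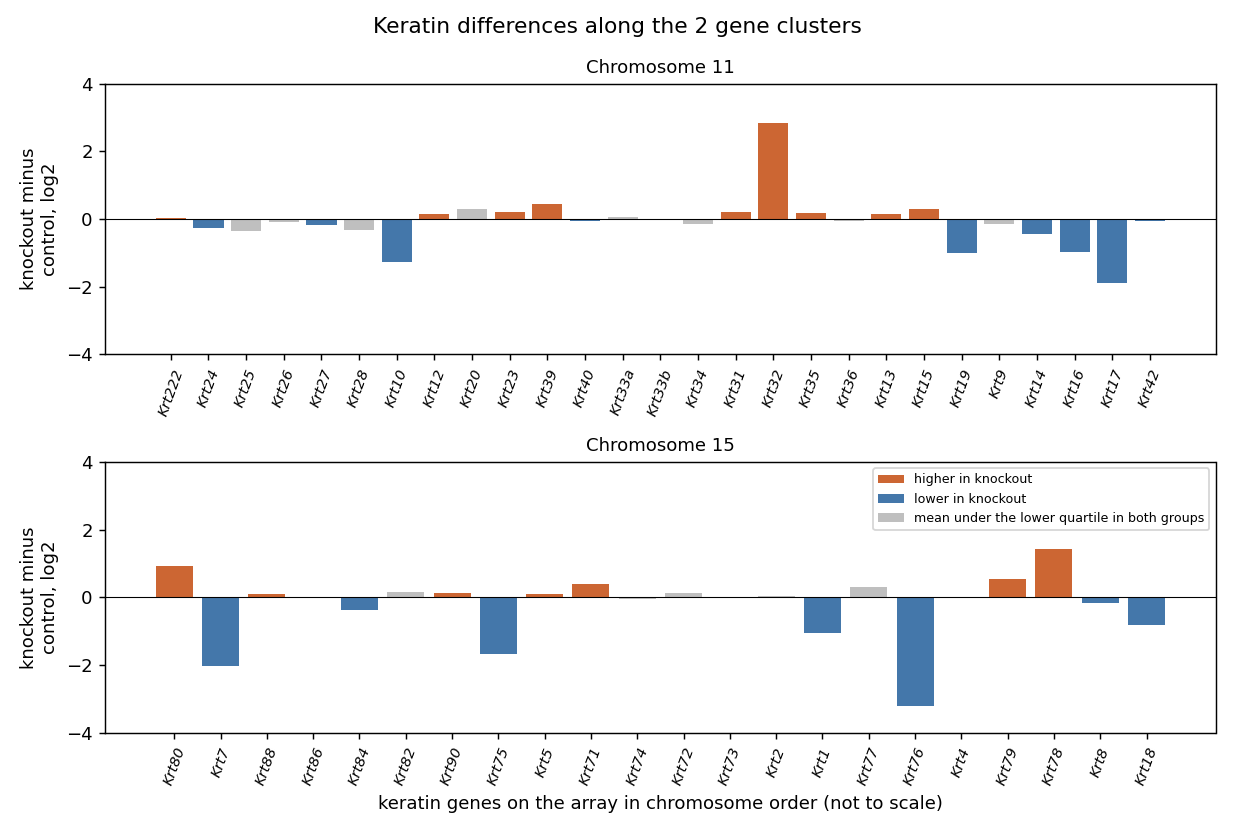
Difference of knockout minus control on the log2 scale (vertical axis) for the measured keratins in chromosome order (horizontal axis, not to scale), with the type I cluster on chromosome 11 above and the cluster on chromosome 15 below. Grey bars are genes with means under the lower quartile in both groups. Krt32 at 2.83 stands between Krt31 at 0.20 and Krt35 at 0.19, and the bar of Krt4, beside Krt76 at -3.21, is of a gene at the upper limit of the table on 4 arrays.

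Of 43 measured genes that work with keratins or belong to other filament classes, 26 had positive and 17 negative differences. In the list of anchoring proteins, which tie keratin filaments to desmosomes and hemidesmosomes, 7 of 11 measured members were positive, with a median of 0.67 and none past limma's adjusted threshold. An unadjusted p under 0.05 was reached by 4, all higher (36.4%, where 6.61% of all probe sets reached it as higher), and by 1 without both arrays lacking Y-linked signal, where the median was 0.16. The desmosomal linkers Ppl and Dsp stood at 1.55 and 0.88 (0.82 and 0.35 without both arrays), and the desmosomal Pkp2 at -0.16. The hemidesmosome genes Dst, Itga6, Itgb4 and Col17a1 stood at -0.97, -0.23, -0.23 and 0.17. Dst was low in knockout 3, and without that array it stood at -0.36. In the list of transcription factors of stratified epithelium, 10 of 12 were positive, with a median of 0.96. None passed limma's adjusted threshold, 7 had an unadjusted p under 0.05 and the same number had separated groups, all higher (58.3%, where 6.61% and 9.28% of all probe sets did so as higher). Without both arrays lacking Y-linked signal the median was 0.39, and 4 had an unadjusted p under 0.05. The share of all probe sets reaching it without both arrays is not given here. The counts of 1 anchoring gene and 4 factors from that fit therefore cannot be set against a background. Trp63, the factor of basal cells, differed by 0.31, and by 0.03 without knockout 3. Klf4 and Grhl3, of the upper layers, differed by 1.40 and 1.30, and by 0.73 and 0.72 without control 1. The 15 other intermediate filament genes had a median of -0.07. Over the 43 genes, of 47 listed, 0 passed by limma at an adjusted p under 0.05, 14 had an unadjusted p under 0.05 (13 higher and 1 lower, 32.6% against 12.7% of all probe sets), and the count with an ordinary t statistic was also 0.

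Squamous markers other than keratins had a higher mean level in every knockout lobe than in any control. That mean level of the 10 markers was 12.54, 13.20 and 13.35 in controls and 13.58, 13.56 and 14.23 in knockouts, and 9 of the 10 were positive. The difference in mean level was 0.76, and 0.30 without both arrays lacking Y-linked signal. None passed limma's adjusted threshold. An unadjusted p under 0.05 was reached by 7 of the 10, all higher (6.61% of all probe sets reached it as higher), and by 4 without both arrays. The share of all probe sets for the fit without both arrays is not given here. That count of 4 therefore cannot be set against a background. Control 1 was the lowest array for this list and knockout 3 the highest, as they were for Krt78, Krt80 and Krt32. For the basal keratins Krt5, Krt14 and Krt15, control 1 was instead the highest control. Over the 34 keratins not below the lower quartile in both groups, knockout 3 was the highest knockout array for 21. The part of squamous tissue in the keratin values was not tested.

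**Figure D4:**
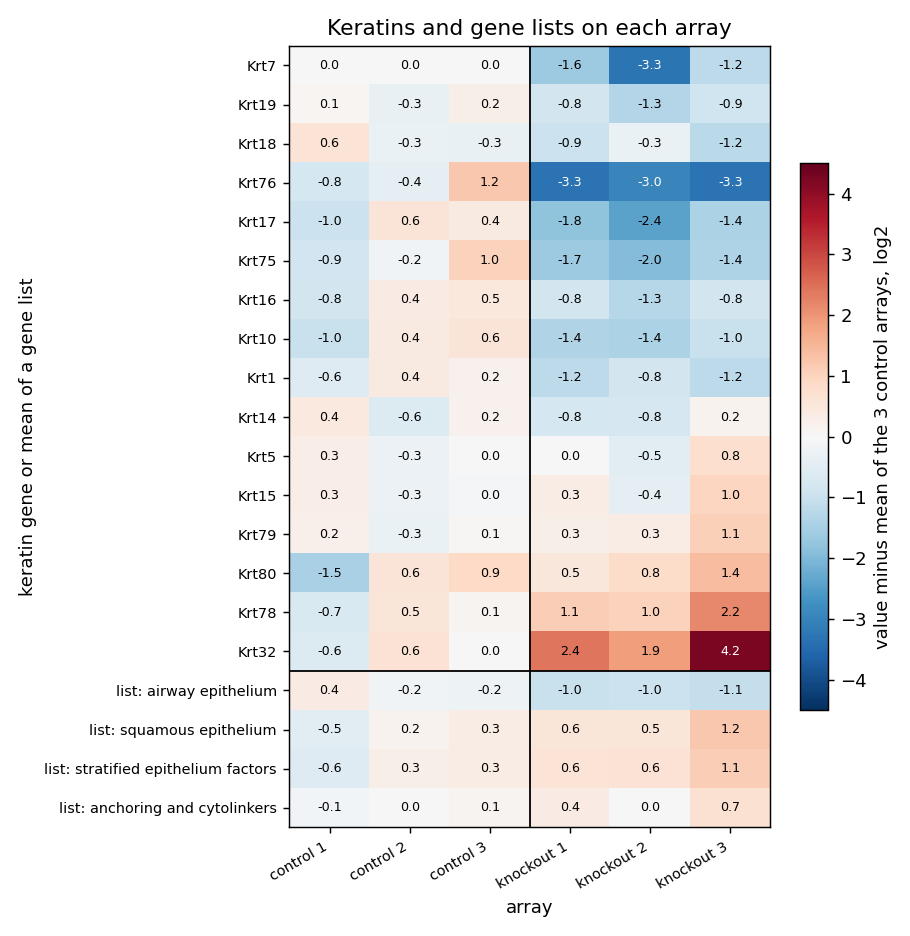
Value minus the mean of the 3 control arrays on the log2 scale (colour and printed number) for 16 keratins and the mean level of 4 gene lists (vertical axis) on each of the 6 arrays (horizontal axis). Krt7, Krt19 and the airway list are lower in all 3 knockouts, and Krt32, Krt78 and the squamous list are higher, most of all in knockout 3. Control 1 is below the other controls for Krt10, Krt16, Krt17 and Krt80.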

How the data were processed

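The authors deposited log2 expression values per probe set. Per the submitters' processing notes they used RMA and Affymetrix Expression Console. RMA normally subtracts background, gives all arrays the same distribution and summarises each probe set. Settings and genome build were not given in the sources used here, and no detection calls were used. Array medians lay between 5.62 and 5.69, and precision is limited by having 3 arrays in each group. Probe sets were named by the platform annotation of 2019 and updated by gene identifier to RefSeq GRCm38.p6 (19572 of 22206 named). All probe sets were fitted with limma 3.58.1 in R 4.3.3 (lmFit, eBayes), as a two-sided test, and p-values were adjusted over all of them by Benjamini-Hochberg. The threshold was 0.05. Intervals are limma's 95% intervals, unadjusted. "Below the lower quartile" means that a group's mean is under the mean lower quartile of its arrays. On simulated data for knockout against control with 22206 probe sets, the fit recovered 20% of changes of 1 log2 unit, 90% of 2, 94% of 3 and 100% of 4. It made 166 calls there, 14 of them false, against 75 calls on the real arrays. The simulated noise was independent between probe sets, so these shares may not hold for the real arrays. A difference that missed the threshold is therefore not shown to be absent.

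Named with values were keratins past the threshold or with separated groups, the partner pairs, all measured simple, basal, activation and oral keratins, and the largest difference in each other group. Members, groups and lists were chosen with earlier results of these data known. A list gene was matched by symbol or by a synonym of 1 named gene. Of lists not described in the text, the median differences, with their range when single arrays were left out, were -0.07 (-0.13 to 0.02; thymus epithelium, 5 markers), -4.80 (-7.06 without knockout 2 to -2.77 without knockout 1; parathyroid, 2), -0.59 (-0.93 to -0.16; C cell, 3), -0.84 (-1.03 to -0.52; skeletal muscle, 6), -0.58 (-0.98 to -0.39; salivary and mucous gland, 4) and 0.58 (0.19 to 0.83; filament aggregation and matrix, 5), with 0 members past the adjusted threshold by limma in each. In the same order, 1, 1, 0, 3, 1 and 1 members had an unadjusted p under 0.05. That is 20%, 50%, 0%, 50%, 25% and 20%, where 12.7% of all probe sets reached it (6.13% lower and 6.61% higher). Those of thymus epithelium and of filament aggregation and matrix were higher, and the rest were lower. Figures were drawn with matplotlib 3.10.9.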

Additional observations from a re-analysis of the deposited data

How the results depend on the processing

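Of 49 keratins, 1 passed as deposited, and Krt76 alone passed under a second quantile normalization, array weights, centring on medians, robust fitting with a variance trend, a filter on probe sets with a mean above 4, named probe sets alone, and Y-linked signal as a covariate (added after seeing the data). With an ordinary t statistic the count was 0, without both arrays lacking Y-linked signal (also added) it was 0, and at an adjusted p of 0.1 it was 2. Leaving out single arrays gave counts of 0 to 3, with 3 (Krt10, Krt17 and Krt76) without control 1 and 0 without control 2 or any knockout. The share of all probe sets passing with arrays left out is not given here. Whether those counts exceed their background therefore cannot be read from them. The partner gene count stayed at 0 in every alternative fit. Gene lists were also taken without single arrays and without both lacking Y-linked signal, chosen after seeing the data. With the replicate number as a block the keratin count was 1, again Krt76. No pairing by number was seen in the deviations from the group means. Those of same-numbered arrays correlated at -0.009, 0.076 and 0.017, and those of unlike number at -0.077 to 0.059. These values cannot show whether same-numbered animals were handled together. Of 388 differences of 23 named keratins under the alternatives, 377 kept their sign, and the 11 that did not belonged to 5 keratins (Krt5, Krt8, Krt15, Krt23 and Krt80), none of them called. Many of the 388 could not change sign, since some alternatives leave the difference itself unchanged. These are the variance trend, both probe set filters, the ordinary t statistic, the replicate block, the Y-linked covariate and the looser threshold. Averaging several probe sets of a gene gave no value, since each keratin has 1. Leaving out 1 array moved 11 of the 23 by over 1.5 times, none of them past the threshold.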
